A study of Mus musculus with 7 samples.

Results

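The core splicing factors are the SR proteins, the SF3a and SF3b complexes and the proteins of the small nuclear ribonucleoproteins (snRNPs). Their genes were taken from the expression table by symbol, as every row that begins with Srsf or Sf3a or Sf3b and a digit, or with Snrp, pseudogenes aside, which gave 32 of 24341 genes. They comprised 11 SR genes, 3 SF3a genes, 6 SF3b genes, 8 Sm genes and, as proteins of single snRNPs, Snrpa and Snrpc of U1 and Snrpa1 and Snrpb2 of U2. Of the 32 genes, 30 passed the filter on low values, as did 10541 genes of the whole table. Srsf12 and Snrpn did not pass it.

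RNA-seq was carried out on B-cell precursors (BCP) sorted from the spleen of Emu-Ret hemizygous mice on a BALB/c background, in which the enhancer of the immunoglobulin heavy chain drives a RET fusion oncogene in B-lineage cells. All 7 samples carry this transgene. The 4 preleukemic samples came from young mice in good health, and the 3 leukemic samples from older, moribund mice with overt disease, so age differs along with disease. The labels describe the cells of both groups as sorted and BP-1 positive, BP-1 being the product of Enpep. Enpep was at 19.1, 102 and 77.2 FPKM in leukemic replicates 1 to 3 and at 134 to 210 FPKM in the preleukemic samples, so leukemic replicate 1 stood far below the others in the mRNA of the sorting marker (adjusted p between the groups = 0.0688, limma). The labels give no further detail of the single mice, and the p-values below measure the spread between these samples.

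Pre-mRNA splicing removes introns in the nucleus through the spliceosome, which is built anew on each intron from snRNPs. The U1 snRNP pairs with the 5′ splice site, the U2 snRNP pairs with the branch site with the help of SF3a and SF3b, and a ring of Sm proteins surrounds the RNA of each of these particles. SR proteins bind exons and recruit U1 and U2 to nearby splice sites, and they are regulated by phosphorylation. Mutations of SF3B1 and SRSF2 are known from human blood cancers, and B cells change splicing as they mature, as in the choice between membrane and secreted immunoglobulin.

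The implied depth was 13600000 to 16100000 fragments per sample. Values are FPKM, that is, fragments scaled to the length of the transcript and to the mapped total of the sample, which allows levels to be compared between genes. The summed FPKM of all genes was 507355 to 539887 in the leukemic samples and 448022 to 471447 in the preleukemic samples. The label of the cells was checked with markers. All 10 B-cell precursor markers were expressed, with summed levels of 3227 to 5121 FPKM in leukemic BCP and 6140 to 7645 FPKM in the preleukemic samples. At an adjusted p under 0.05 (limma) 4 of the 10 fell (6.26% of all genes tested), and 9 had an unadjusted p under 0.05. For 8 of them the leukemic values lay wholly below the preleukemic ones (17.1% of all genes tested). Cd24a overlapped, at 344, 735 and 666 FPKM in leukemic replicates 1 to 3 against 329 to 518 FPKM. Red cell precursor markers summed to 5135 to 25470 FPKM in the leukemic samples against 236.7 to 2500 FPKM (2500 FPKM in preleukemic replicate 1), and all 11 that were tested rose. Macrophage markers (53.9 to 265 against 13.95 to 25.7 FPKM; 7 of 10 tested rose) and neutrophil markers (1422 to 1759 against 149 to 868 FPKM; 5 of 10 rose) moved the same way. Of plasma cell markers 1 of 4 rose, Jchain, at 81.5, 112 and 143 FPKM in leukemic replicates 1 to 3 against 18.6 to 22.2 FPKM. The others tested, Irf4, Xbp1 and Sdc1, overlapped between the groups, and the plasma cell sum was 208 to 254 against 140.3 to 150.2 FPKM. Of T and NK cell markers 0 of 6 were called by limma (3 at an unadjusted p under 0.05), with 11.3 to 37.7 against 13.3 to 18.4 FPKM. No marker was at the floor of the table in all samples. The part of these markers in the values below was not tested, and in bulk samples fewer cells of a type and less RNA per cell cannot be told apart.

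Promoter windows are shown for those members whose 3 leukemic values all lay above the 4 preleukemic values and that have a window in the RefSeq promoter table (all but Sf3b4), so that the start regions of the genes with the clearest separation can be read side by side. Each window runs from 250 bases before to 50 bases after the annotated start, 5′ to 3′ on the strand of the gene, in GRCm38.p6. The positions are chr17:27839837-27840136 on the plus strand for Snrpc, chr10:75517792-75518091 on the plus strand for Snrpd3, chr10:80798485-80798784 on the plus strand for Sf3a2, chr7:19149588-19149887 on the plus strand for Snrpd2 and chr17:80207256-80207555 on the minus strand for Srsf7. Capitals mark matches to the motifs described in the next paragraph.
Snrpc: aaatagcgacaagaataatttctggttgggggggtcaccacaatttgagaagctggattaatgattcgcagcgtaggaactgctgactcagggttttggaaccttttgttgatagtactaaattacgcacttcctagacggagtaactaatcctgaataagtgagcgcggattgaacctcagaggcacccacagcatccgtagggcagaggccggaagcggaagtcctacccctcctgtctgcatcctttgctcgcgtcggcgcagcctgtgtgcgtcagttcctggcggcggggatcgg
Snrpd3: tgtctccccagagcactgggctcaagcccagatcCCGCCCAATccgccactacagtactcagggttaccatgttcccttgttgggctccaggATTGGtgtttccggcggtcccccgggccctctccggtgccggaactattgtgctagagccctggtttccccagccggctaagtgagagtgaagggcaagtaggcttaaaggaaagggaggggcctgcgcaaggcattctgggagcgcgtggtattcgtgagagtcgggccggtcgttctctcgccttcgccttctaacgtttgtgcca
Sf3a2: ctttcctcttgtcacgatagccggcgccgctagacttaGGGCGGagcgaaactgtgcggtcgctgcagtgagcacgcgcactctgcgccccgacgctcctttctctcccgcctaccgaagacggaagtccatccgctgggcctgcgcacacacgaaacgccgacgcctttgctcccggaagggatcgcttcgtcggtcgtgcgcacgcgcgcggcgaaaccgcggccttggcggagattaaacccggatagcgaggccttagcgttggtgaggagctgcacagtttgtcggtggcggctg
Snrpd2: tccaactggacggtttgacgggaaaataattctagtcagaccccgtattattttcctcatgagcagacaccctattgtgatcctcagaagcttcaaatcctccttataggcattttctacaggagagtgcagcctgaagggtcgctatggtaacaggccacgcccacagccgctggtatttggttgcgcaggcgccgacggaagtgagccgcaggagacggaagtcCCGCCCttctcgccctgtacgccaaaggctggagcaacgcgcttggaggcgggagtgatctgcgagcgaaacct
Srsf7: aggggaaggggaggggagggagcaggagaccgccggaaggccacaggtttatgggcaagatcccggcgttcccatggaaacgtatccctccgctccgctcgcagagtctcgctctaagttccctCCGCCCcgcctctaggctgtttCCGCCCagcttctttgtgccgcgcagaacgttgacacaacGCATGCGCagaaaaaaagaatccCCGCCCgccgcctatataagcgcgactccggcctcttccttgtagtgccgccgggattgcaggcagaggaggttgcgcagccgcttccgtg

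Of the 32 members, 28 had a promoter window (Sf3b4, Sf3b5, Snrpb and Snrpd1 had none), and 27025 windows were searched in all, on both strands, for 6 motifs that do not contain one another. The 27025 windows were not limited to genes expressed in these samples, so the shares of all windows are not those of expressed genes. The GC box, GGGCGG, was present in 19 of the 28 member windows and in 35.9% of all windows, and within the SR genes in 10 of 11. Among the Sm genes 2 of 6 windows held it. The CCAAT box, CCAAT, was in 10 of 28 (37.9% of all windows), among them 4 of 6 Sm windows. The ETS motif, CCGGAAGT, was in 6 of 28 (4% of all windows), TATAAA in 4 (14.2%), the NRF1 motif, GCGCATGC, in 1 (2.8%; Srsf7) and the E-box, CACGTG, in 1 (7.24%; Snrpa). In the windows printed, the first base of the GC box lay at -216 from the start in Snrpd3, at -212 in Sf3a2, at -24 in Snrpd2 and at -126, -104 and -41 in Srsf7. Snrpd3 also held a CCAAT box at -212, which shares its first letters with the GC box, and a second one at -158, and Srsf7 an NRF1 motif at -64, while the window of Snrpc held none of the 6 motifs in these exact letters. Of the 7 SF3 windows, 4 held the GC box and 3 the ETS motif.

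The 30 tested splicing factors were expressed at high levels in all 7 samples, and most did not pass the test between leukemic and preleukemic cells. Between leukemic and preleukemic BCP, 1 of 30 genes rose, Snrpc, and 0 fell at an adjusted p under 0.05 (limma, Benjamini-Hochberg over all genes tested). Over all genes tested 14.7% were called, 8.47% higher and 6.26% lower, so the members were called at a smaller share than genes at large. At an unadjusted p under 0.05, 5 of 30 members were called, against 3586 of 10541 genes. The median log2 fold change of the 30 genes, here and below on the scale of log2(FPKM + 1) and leukemic minus preleukemic, was 0.11, against -0.02 over all genes tested. Of the 30 genes, 22 lay above 0, against 5045 of the 10541 genes tested. With quantile normalization 18 of the 30 lay above 0, and with FPKM scaled to the same sum 12. The leukemic values lay wholly above the preleukemic values for 6 genes (14.9% of all genes tested), which were Snrpc, Snrpd3, Sf3a2, Snrpd2, Srsf7 and Sf3b4, and wholly below for 0 genes (17.1% of all genes tested).

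**Figure D1:**
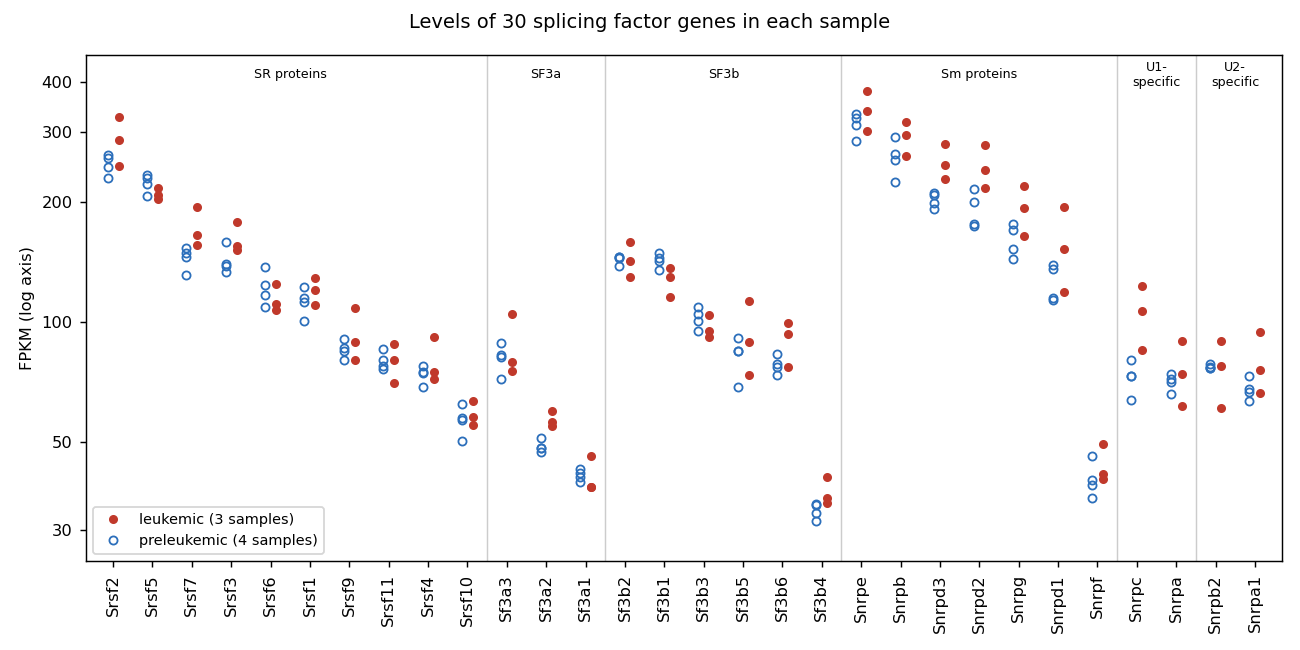
FPKM of the 30 tested splicing factor genes on a log axis, with 1 point per sample (filled, 3 leukemic; open, 4 preleukemic), by class and in order of mean level. Most genes show overlapping groups, and the leukemic values are all higher for Snrpc, Snrpd3, Sf3a2, Snrpd2, Srsf7 and Sf3b4.

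Snrpc encodes U1-C, the zinc finger protein of the U1 snRNP that steadies its pairing with the 5′ splice site. Its level was 123, 106 and 85.2 FPKM in leukemic replicates 1 to 3 and 73.2, 63.7, 80.2 and 73.0 FPKM in preleukemic replicates 1 to 4. All 3 leukemic values were the higher ones, and the closest pair was leukemic replicate 3 and preleukemic replicate 3. The mean was 105 ± 19.1 FPKM (SD, n = 3) against 72.5 ± 6.76 FPKM (SD, n = 4). The log2 fold change was 0.52 ± 0.14 (SE; 95% interval 0.19 to 0.84), with an adjusted p of 0.047 by limma, which is a fold of 1.43 on that scale. The call rested on every sample but 1, since it was lost without leukemic replicate 1 (adjusted p = 0.0884), leukemic replicate 2 (0.0901) or any of the preleukemic replicates (0.085 to 0.122) in limma, and held without leukemic replicate 3 (0.0297). The call was also lost with FPKM scaled to the same sum (adjusted p = 0.0805), with no filter on low values (0.0615), with a filter at an FPKM sum of 70 (0.0508) and with the replicate block (0.191). In all alternative settings the log2 fold change stayed above 0, at 0.35 to 0.66. Snrpc lies on chromosome 17, at 27840087 to 27851967 (mm10). At least 484 fragments stood behind each of its values at the lowest depth, for a counting error of 4.55%. The other U1 protein among the members, U1-A, is encoded by Snrpa, which had 89.5, 73.9 and 61.4 FPKM in leukemic BCP and 65.8 to 73.9 FPKM in the preleukemic samples. The groups overlapped (log2 fold change 0.07, adjusted p = 0.726, limma), and the direction turned under both other scalings.

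The Sm proteins, which form the ring on the U1, U2, U4 and U5 snRNAs, were among the most highly expressed members. The order of mean levels over the 7 samples was Snrpe (326 FPKM), Snrpb (273 FPKM), Snrpd3 (224 FPKM), Snrpd2 (215 FPKM), Snrpg (174 FPKM), Snrpd1 (138 FPKM) and Snrpf (41.8 FPKM). Each was above the next in 7 of 7 samples, except Snrpd3 over Snrpd2 with 5 of 7, and only Snrpf was separated from its neighbor without any overlap of the ranges. The mRNA level of Snrpf stood far below those of the genes whose products share the ring with it, and its row overlaps those of 4933408J17Rik and Ccdc38. All 7 tested Sm genes had a log2 fold change above 0, with a median of 0.25, but 0 of 7 were called by limma at an adjusted p under 0.05, and 2 of 7 had an unadjusted p under 0.05. With quantile normalization 6 of 7 lay above 0 (Snrpe turned) and with FPKM scaled to the same sum 5 of 7 (Snrpe and Snrpf turned). That scaling moved the median of all genes from -0.02 to -0.17. Relative to the median of all genes the 7 Sm genes were higher in each of the 13 alternative settings, which reuse the same samples. Of all 30 members, 21 to 25 lay above that median in these settings. In the fit as reported, the 912 genes with a shortest RefSeq mRNA below 1000 bases had a median of 0.126. Of the Sm genes of that length, Snrpe (0.11) and Snrpf (0.12) lay below it and Snrpd1 (0.28) above it.

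Snrpd3 (SmD3) came closest to a call. Its level was 280.3, 248 and 229 FPKM in leukemic BCP and 209, 211, 199 and 192 FPKM in the preleukemic samples. The groups did not overlap, and the log2 fold change was 0.31 ± 0.09 (SE; 95% interval 0.11 to 0.52; adjusted p = 0.0529, limma). Snrpd3 was called in 1 of 13 alternative settings, the one without leukemic replicate 3 (0.0414). With quantile normalization its log2 fold change was 0.20 (adjusted p = 0.142, limma), and with FPKM scaled to the same sum 0.15 (0.281). Snrpd2 (SmD2) had 279, 240 and 217 FPKM against 215, 174, 201 and 176 FPKM. Its leukemic replicate 3 stood only just above preleukemic replicate 1, and the log2 fold change was 0.35 ± 0.12 (SE; 95% interval 0.08 to 0.63; adjusted p = 0.0838). Snrpg (0.25, adjusted p = 0.177), Snrpd1 (0.28, 0.280), Snrpb (0.17, 0.296), Snrpf (0.12, 0.487) and Snrpe (0.11, 0.4496) overlapped between the groups. For Snrpd1 the 3 leukemic values were 194, 152 and 119 FPKM and the preleukemic values 114 to 139 FPKM. Snrpn, the neuronal counterpart of Snrpb, was near the floor of the table in every sample and shares its locus with Snurf.

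The makeup of the Sm ring genes within each sample does not depend on the scaling between samples. Snrpe took 22.1% to 22.6% of the summed Sm FPKM in leukemic BCP and 23.7% to 24.9% in the preleukemic samples, a lower share without overlap. Snrpd2 took 15.9% to 16.2% in the leukemic samples and 14.02% to 15.7% in the preleukemic samples, a higher share without overlap. Each had p = 0.0571 in a two-sided exact permutation test, which is the smallest p that 3 against 4 samples can give, and 0.33 after Benjamini-Hochberg adjustment over the 26 shares examined in the Sm, SR and SF3 genes. The remaining Sm shares overlapped.

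**Figure D2:**
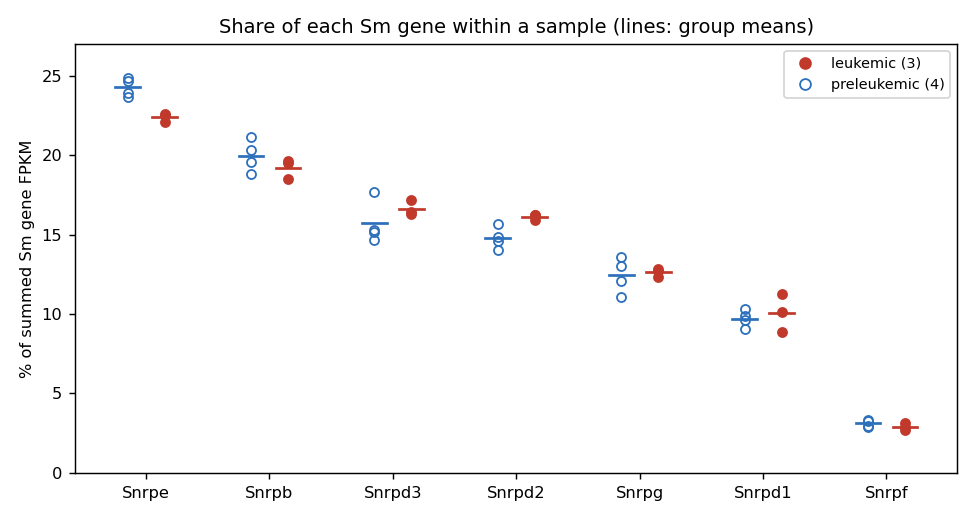
Share of each of 7 Sm genes in the summed Sm FPKM of a sample, in percent, with points for samples (filled, leukemic; open, preleukemic) and lines for group means. Snrpe lies lower in all 3 leukemic samples and Snrpd2 higher, and the other 5 genes overlap.

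The samples of each group were not alike in the Sm genes. The summed Sm level was 1722, 1509 and 1334 FPKM in leukemic replicates 1 to 3 and 1375, 1194, 1352 and 1256 FPKM in preleukemic replicates 1 to 4, so leukemic replicate 3 lay within the preleukemic range. A list of 20 mitotic genes was set beside it, after values had been seen. Its sum was 2101, 1560 and 1047 FPKM in leukemic BCP and 1237, 733, 1155 and 1013 FPKM in the preleukemic samples. The 7 samples stood in the same order for the Sm sum as for the mitotic sum, and Snrpb and Snrpd2 kept that order within each group on their own. The sums of the SR genes and of the SF3 genes did not follow it in either group, and those of the U1 and U2 proteins followed it among the leukemic samples only. The mitotic list itself had a median log2 fold change of 0.45, with 1 of 20 genes called by limma (Mki67, 0.74, adjusted p = 0.0316). What part cell division has in the Sm levels was not tested.

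**Figure D3:**
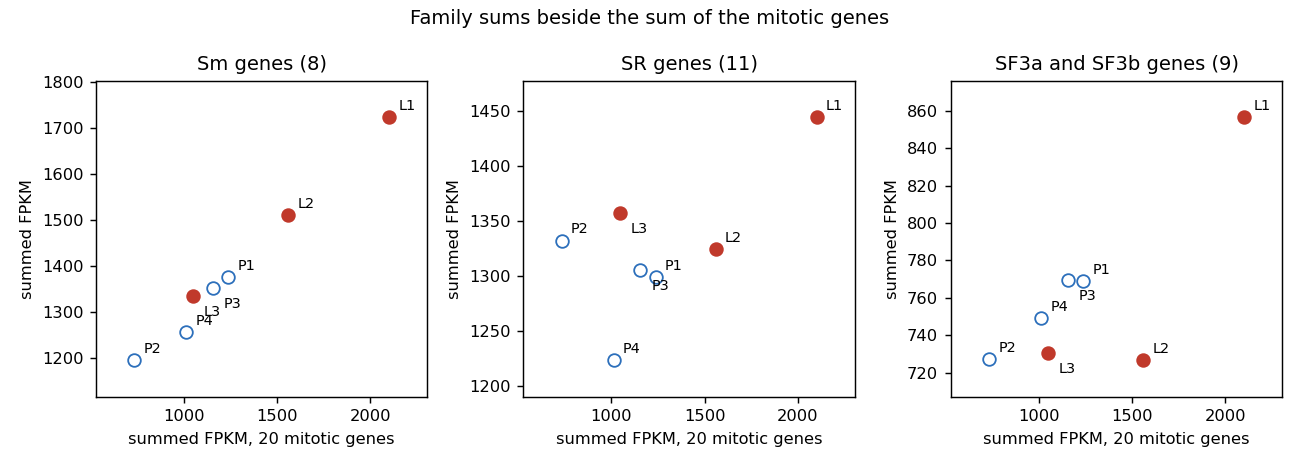
Summed FPKM of the Sm, SR and SF3 genes (y axes, which do not start at 0) against the summed FPKM of 20 mitotic genes (x axes), with 1 point per sample (L, leukemic; P, preleukemic; the digit is the replicate). The Sm sum stands in the same order as the mitotic sum in all 7 samples, and the SR and SF3 sums do not.

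Leukemic replicate 1 had the highest value of the 7 samples for 23 of the 30 members, compared with 26.1% of all genes tested. It was the highest for all 7 Sm genes, for all U1 and U2 proteins among the members and for the 3 SF3a genes. Its median deviation from the mean of the preleukemic samples was 0.299 (log2) over the members and -0.000778 over all genes, whereas leukemic replicate 2 had 0.0806 and leukemic replicate 3 -0.0102 over the members. Without leukemic replicate 1 the median log2 fold change of the members was 0.0484, that of the Sm genes was 0.107, 18 of 30 members lay above 0 and 0 were called.

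The U2 proteins overlapped between the groups. Snrpa1 (U2-A′) had 94.3, 75.7 and 66.3 FPKM in leukemic BCP and 63.5 to 73.0 FPKM in the preleukemic samples (log2 fold change 0.20, adjusted p = 0.284, limma). Snrpb2 (U2-B′′) had 89.5, 77.5 and 60.8 FPKM against 76.5 to 78.3 FPKM (-0.04, 0.845). Its preleukemic values were close together, and the leukemic values lay on both sides of them.

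SF3a and SF3b bind U2 and hold the branch site, with Sf3b1 at the center of the complex. The SF3b genes fell in the order Sf3b2 (144 FPKM), Sf3b1 (136 FPKM), Sf3b3 (99.99 FPKM), Sf3b5 (86.2 FPKM), Sf3b6 (83.0 FPKM) and Sf3b4 (35.2 FPKM). Sf3b2 and Sf3b1 differed by less than their spread (5 of 7 samples in that order), as did Sf3b5 and Sf3b6 (4 of 7), and Sf3b1 was above Sf3b3 in all samples without overlap. Sf3b1, whose human counterpart is mutated in blood cancers, had 130, 115 and 137 FPKM in leukemic BCP and 135, 142, 149 and 145 FPKM in the preleukemic samples. Leukemic replicate 3 was the only leukemic value inside the preleukemic range. The log2 fold change was -0.17 (95% interval -0.36 to 0.02, adjusted p = 0.192, limma), and with FPKM scaled to the same sum it was -0.33 and passed the threshold (0.0375).

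Sf3a2, a partner of U2 in the early complex, had 59.6, 54.8 and 56.1 FPKM in leukemic BCP and 48.1, 51.0, 48.3 and 47.0 FPKM in the preleukemic samples. All leukemic values were above all preleukemic values, and the log2 fold change was 0.22 ± 0.07 (SE; 95% interval 0.06 to 0.39; adjusted p = 0.0736, limma). Sf3a2 was called in 1 of 13 alternative settings, the one with no filter on low values (0.0436). Its log2 fold change was 0.17 with quantile normalization (adjusted p = 0.162, limma) and 0.06 with FPKM scaled to the same sum (0.617). Sf3b4 had 40.8, 34.99 and 36.02 FPKM against 34.8, 31.5, 34.9 and 33.1 FPKM, which did not overlap by a narrow margin (0.14, adjusted p = 0.257), and its direction turned with FPKM scaled to the same sum. Within each sample Sf3b4 took 4.76% to 4.93% of the SF3 sum in the leukemic samples and 4.34% to 4.53% in the preleukemic samples, with p = 0.0571 in the two-sided exact permutation test and 0.33 after adjustment. The remaining SF3 genes overlapped, with log2 fold changes of 0.19 for Sf3b6, 0.14 for Sf3b5, 0.08 for Sf3a3, -0.00 for Sf3b2, -0.01 for Sf3a1 and -0.08 for Sf3b3. For Sf3b2 the 95% interval was -0.20 to 0.19. The levels of Sf3a3 (83.5 FPKM) and Sf3a1 (41.2 FPKM) enclosed that of Sf3a2 (52.2 FPKM), and the 3 ranges did not overlap.

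Among the SR genes, Srsf2 was the highest, with a mean of 266 FPKM over the 7 samples, followed by Srsf5 (218 FPKM), Srsf7 (156 FPKM), Srsf3 (151 FPKM), Srsf6 (119 FPKM), Srsf1 (116 FPKM), Srsf9 (88.4 FPKM), Srsf11 (79.7 FPKM), Srsf4 (76.2 FPKM) and Srsf10 (57.5 FPKM). Srsf7 and Srsf3 could not be ranked (4 of 7 samples in that order), nor could Srsf6 and Srsf1 or Srsf11 and Srsf4 (5 of 7 each). Srsf5 was above Srsf7, and Srsf4 above Srsf10, in every sample without overlap. Srsf12 was at most 0.105 FPKM. None of the 10 tested SR genes was called by limma, 1 of 10 had an unadjusted p under 0.05, and the median log2 fold change was 0.09, with 7 of 10 above 0 (6 with quantile normalization and 3 with FPKM scaled to the same sum).

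Srsf7, a zinc knuckle SR protein, had 165, 156 and 194 FPKM in leukemic BCP and 146, 149, 153 and 131 FPKM in the preleukemic samples. Its groups did not overlap, with leukemic replicate 2 close to preleukemic replicate 3, and the log2 fold change was 0.24 ± 0.10 (SE; 95% interval 0.01 to 0.48; adjusted p = 0.137, limma). Srsf3, the smallest of the classical SR proteins, had 178, 155 and 152 FPKM against 134, 138, 159 and 140 FPKM. Preleukemic replicate 3 lay inside the leukemic range, and the log2 fold change was 0.18 (adjusted p = 0.210). Srsf2 had 328, 287 and 247 FPKM against 263, 258, 245 and 230.1 FPKM (0.20, adjusted p = 0.232). The log2 fold changes of Srsf9 (0.11), Srsf4 (0.10), Srsf1 (0.09), Srsf10 (0.05), Srsf11 (-0.01), Srsf5 (-0.09) and Srsf6 (-0.09) had adjusted p values of 0.404 to 0.948. Srsf5 took 14.5% to 16.03% of the SR sum in the leukemic samples and 15.99% to 18.8% in the preleukemic samples, which overlapped by a small margin.

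**Figure D4:**
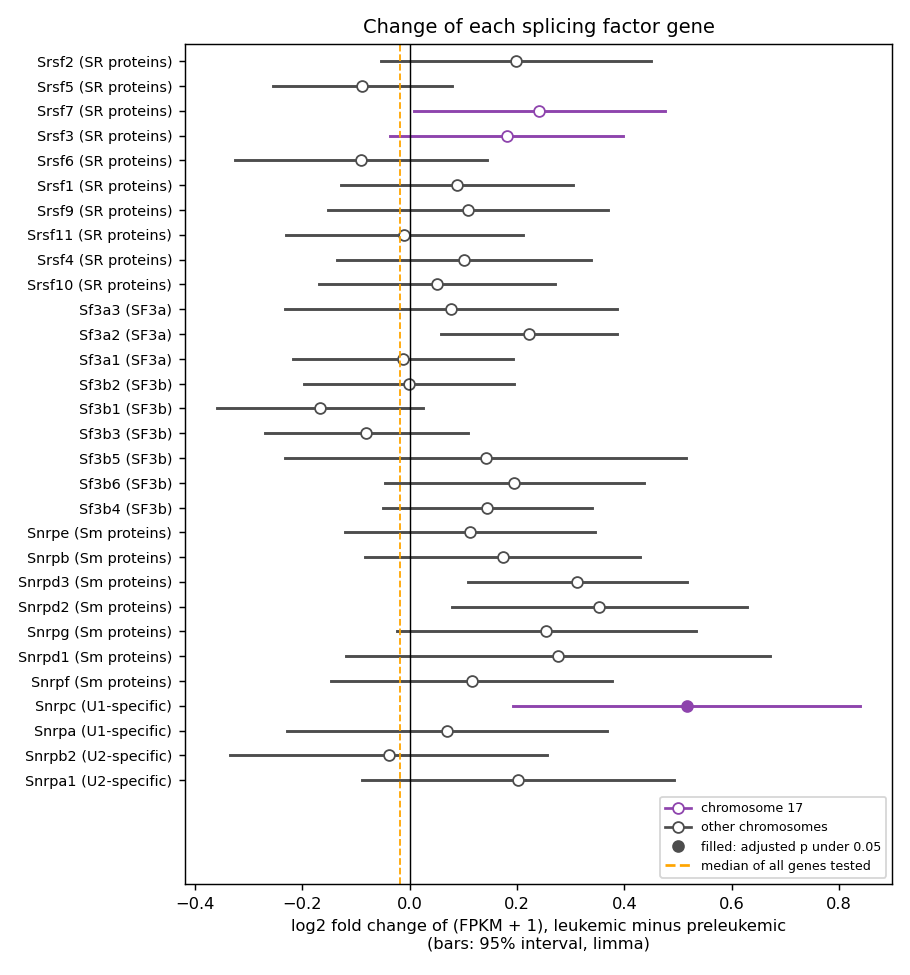
Log2 fold change of FPKM + 1, leukemic minus preleukemic, for the 30 tested genes with 95% intervals from limma (filled point, adjusted p under 0.05; purple, chromosome 17; dashed line, median of all genes tested). Only Snrpc is filled, and the 7 Sm genes lie to the right of 0, of which Snrpe and Snrpf turn with FPKM scaled to the same sum and Snrpe with quantile normalization.

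The annotated transcripts of the members differed by class. In GENCODE, 9 of the 10 tested SR genes (all but Srsf10) had a transcript annotated for nonsense-mediated decay, the pathway that removes mRNAs with an early stop codon, against 30.8% of 9870 tested genes with a coding transcript. The count was 0 of 3 for SF3a, 1 of 6 for SF3b and 2 of 7 for the Sm genes, and 14 of 30 members in all. SR genes are known to limit their own output through such transcripts. The values are per gene and do not separate these transcripts from the coding ones, so a change in their ratio was not measured here.

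The members with shorter mRNAs were on the whole those with the higher fold changes. The length used was that of the shortest RefSeq mRNA and no longer than the locus in the table. The 6 members below 1000 bases had a median log2 fold change of 0.192 (0.126 over 912 genes of that length), the 11 members from 1000 to 2000 bases 0.173 (0.0572 over 2490 genes) and the 13 longer members -0.00135 (-0.0644 over 7137 genes). Across the 30 members Spearman's rho between log2 fold change and log2 length was -0.569 and Pearson's r -0.581, and across 10539 genes they were -0.211 and -0.142. These are descriptions across genes, which share the same 7 libraries and are not independent replicates. Class and length did not follow each other throughout, since Snrpd3 (3036 bases) and Snrpb2 (2061 bases) were among the longer members and Sf3b5 (734 bases) and Srsf7 (987 bases) among the shorter.

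The partner genes of the pathway comprised 148 tested genes in 9 lists by role. Of these, 10 rose and 5 fell (limma, adjusted p under 0.05), with a median log2 fold change of 0.04, where 8.47% and 6.26% of all genes were called higher and lower. With FPKM scaled to the same sum the split turned, with 5 higher and 25 lower and a median of -0.116, and with quantile normalization 9 were higher and 7 lower, with a median of -0.0193. The calls depended on the preleukemic samples, as they did over all genes. Without preleukemic replicate 1, 7 partner genes were called (9.01% of all genes), without replicate 2 1 (Srpk1; 4.41%), without replicate 3 1 (Cdc5l; 2.63%) and without replicate 4 0 (1.02%). No called partner gene changed sign in any alternative setting.

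The kinases that phosphorylate SR proteins moved in both directions. Srpk2, which phosphorylates the serine-arginine domain of SR proteins, had 13.2, 16.0 and 12.3 FPKM in leukemic BCP and 19.6, 20.9, 19.2 and 20.9 FPKM in the preleukemic samples, and fell by 0.52 on the log2 scale (adjusted p = 0.0216, limma). Clk4, a nuclear kinase of SR proteins, had 20.3, 30.03 and 32.5 FPKM against 39.1, 45.1, 45.1 and 45.8 FPKM, and fell by 0.67 (0.0352). The groups did not overlap for either gene. Srpk1 rose, with 57.1, 59.7 and 57.7 FPKM against 42.6, 51.5, 44.9 and 39.0 FPKM (0.39, adjusted p = 0.0451). Clk1, the most abundant of the list, had 47.7, 85.6 and 92.3 FPKM against 109, 134, 134 and 120.0 FPKM, all lower, with a log2 fold change of -0.77 that did not pass (0.0586). The list as a whole had 1 gene higher and 2 lower of 9 tested, against 8.47% and 6.26% of all genes, and a median of -0.12. Of 13 alternative settings, Srpk2 was called in 9, Clk4 in 8 and Srpk1 in 4. The log2 fold change of Srpk1 in them was 0.223 to 0.457.

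Among the snRNP partners, the spliceosome particle list had 1 of 21 genes called, Nhp2l1 of the U4 snRNP (0.45, adjusted p = 0.0275, limma), and its most abundant gene, Snrnp70 of U1, had 151 to 170.3 FPKM in the preleukemic samples and 179.95 to 199.6 FPKM in the leukemic samples (0.23, adjusted p = 0.0867). The list's median was 0.11. For this list and the next ones, the share of all genes tested was 8.47% called higher and 6.26% called lower. The LSm list holds genes of the ring of U6, together with Lsm10 and Lsm11 of the U7 snRNP, Lsm1 of cytoplasmic mRNA decay and Naa38, an acetyltransferase subunit. It had 2 of 11 called, Lsm2 (0.75, 0.0269) and Lsm7 (0.53, 0.0465), a median of 0.18 and Lsm4 as the most abundant (119 FPKM). Lsm2 had 110, 84.2 and 74.3 FPKM against 57.4, 45.3, 60.3 and 46.4 FPKM, without overlap. For snRNP assembly and import 0 of 18 genes were called by limma (1 of 18 at an unadjusted p under 0.05), with Strap as the most abundant at 97.7 FPKM, and a median of 0.04.

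At the branch site and 3′ splice site 1 of 14 genes rose. This was U2af1, the subunit of U2AF that reads the AG at the end of the intron, with 153, 149 and 126 FPKM against 98.9, 94.996, 104 and 98.2 FPKM (0.52, adjusted p = 0.0167, limma). U2af2, its larger partner and the most abundant of the list, had a log2 fold change of 0.05 (0.625), and the list's median was 0.05. The list of catalytic activation had 2 of 22 called, Cdc5l (0.49, 0.0192) and Dhx16 (0.52, 0.0275), with a median of 0.05 and Cwc15 as the most abundant (124 FPKM). The minor spliceosome list had 1 of 9, Zcrb1 (0.34, 0.0293), also its most abundant gene, and a median of -0.07. All calls in these lists were higher, beside 8.47% of all genes tested.

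The SR-related list had 1 gene higher and 1 lower of 16, and the hnRNP and PTB list 1 higher and 2 lower of 28. Over all genes tested, 8.47% were called higher and 6.26% lower. Rnps1, a protein of the exon junction complex, rose, with 46.8, 38.0 and 36.9 FPKM against 28.1, 23.5, 25.9 and 22.7 FPKM (0.67, adjusted p = 0.0167, limma). Son, a speckle protein, fell by 0.37 on the log2 scale (0.0445). The SR-related median over 16 genes was -0.04, and Acin1 was the most abundant gene (120 FPKM). Of the 28 hnRNPs and PTB proteins, Hnrnpll, known as a regulator of Cd45 splicing in lymphocytes, rose (1.29, 0.0415) at 4.58, 8.60 and 7.03 FPKM against 3.93, 2.55, 1.44 and 1.11 FPKM. Hnrnph3 (fell by 0.38, 0.0395) and Ptbp2 (fell by 0.52, 0.0445) were lower. Hnrnpa2b1, the most abundant at 562 FPKM, had a log2 fold change of 0.12 (0.490), and the median was 0.04.

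By position, 3 tested members lie on chromosome 17, Snrpc, Srsf3 and Srsf7. Their log2 fold changes were 0.18 to 0.52, with a median of 0.24, and 1 was called, whereas the 27 tested members elsewhere had a median of 0.11 and 0 were called by limma (3 at an unadjusted p under 0.05). Of the genes of chromosome 17, 33.6% were called higher, and 49.5% had leukemic values wholly above the preleukemic ones. The share called higher was 6.98% of the genes on all other chromosomes. The 12 partner genes on chromosome 17 had a median of 0.50, 12 of 12 lay above 0 and 7 rose (U2af1, Rnps1, Lsm2, Cdc5l, Dhx16, Srpk1 and Hnrnpll), while of 136 partner genes elsewhere 3 rose and 5 fell, with a median of 0.03. Together, the 15 members and partners on chromosome 17 had 8 calls, all higher, and a median of 0.49, and the 163 others had 3 higher and 5 lower and a median of 0.04 (3 higher, 7 lower and -0.0243 with quantile normalization, and 0 higher, 26 lower and -0.117 with FPKM scaled to the same sum). All genes of chromosome 17 had a median of 0.35 and genes elsewhere -0.04. Of the 592 tested genes of chromosome 17, 503 lay above 0. All tested splicing genes of chromosome 17 stayed above 0 in each of the 13 alternative settings, although without preleukemic replicate 2, 3 or 4 at most 1 of them was called. DNA copy number was not analysed here, and its part in these values was not tested.

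**Figure D5:**
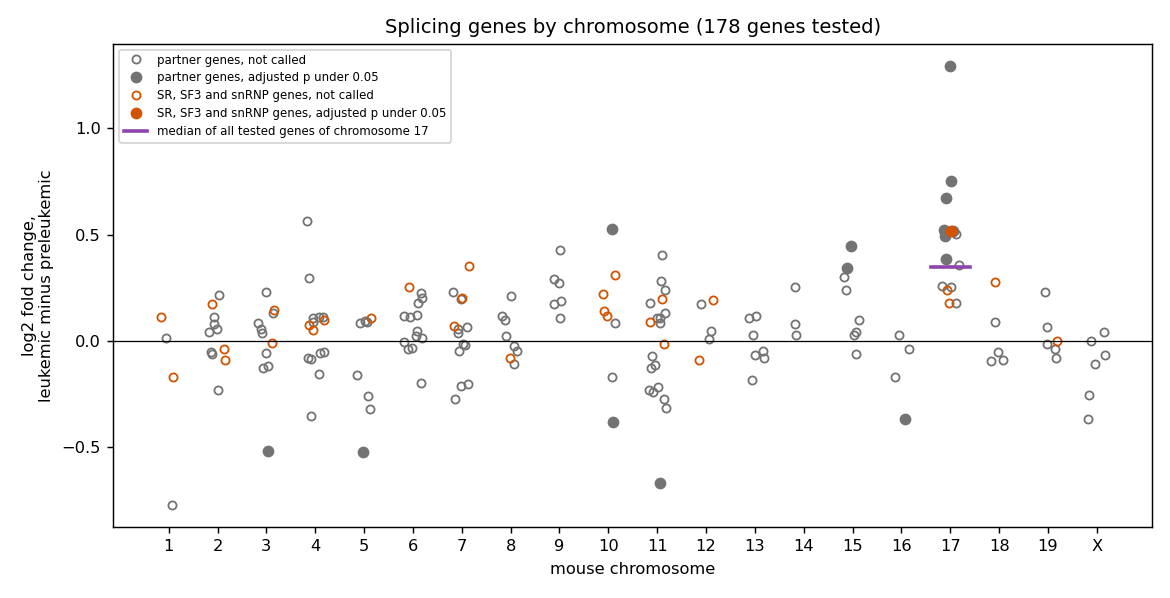
Log2 fold change (leukemic minus preleukemic) of 30 splicing factor genes and 148 partner genes by mouse chromosome, with 1 point per gene (filled, adjusted p under 0.05) and a line at the median of all tested genes of chromosome 17. All 15 splicing genes of chromosome 17 lie above 0, as do 503 of the 592 tested genes of that chromosome, and 8 of the 15 are filled.

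Some rows overlap others in position. The rows of Sf3a3, Sf3b3, Snrpa, Snrpf and Srsf4 overlap the rows of other genes in the table (Mir697, Snord111, BC024978, 4933408J17Rik with Ccdc38, and Gm12992), and whether strand was used in counting is not given in the sources used here. Their values are uncertain to that extent. The fewest fragments behind a value of any tested member were 325, in Snrpf, for a counting error of 5.55%.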

How the data were processed

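RNA was taken from BCP sorted from the spleen, and libraries were made with a stranded mRNA kit. The authors deposited 1 table of FPKM values for 24341 genes and 7 samples, with positions and no value below 0.01. Their processing notes name STAR 2.5.0b, bedtools 2.17.0, Cufflinks 2.2.1, Bowtie, DESeq2 and the build mm10, without the role of each tool. FPKM is not a count, so no count model was run, and the study's filter (a sum of at least 10, here of FPKM over the 7 samples) and threshold of 0.05 were taken over. The 10541 genes kept were tested on log2(FPKM + 1), a scale that understates the change of low genes, with limma 3.58.1 (lmFit, eBayes with trend) in R 4.3.3, leukemic against preleukemic, without covariates, and adjusted over all genes by Benjamini-Hochberg. The procedure was also run on simulated independent values as a check of the code, which does not measure its power for changes as small as those of most members. Shares within families were compared by two-sided exact permutation tests (SciPy) over samples.

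Depth was read from the steps of low values of genes with 1 transcript, of which 75.0% to 79.6% were whole within 0.1 fragments, and counting errors cover counting alone. Transcript classes are from GENCODE M21 and promoters from RefSeq (GRCm38.p6). Alternatives were a pseudocount of 0.1, no filter, a filter at 70, quantile normalization, FPKM scaled to the same sum, a replicate block and leaving out each sample. Every member is named, and from each partner list the called genes (at most 4, by adjusted p) and the most abundant gene. The members and lists were chosen with earlier results of these data known. The mitotic list was set beside the sums after values were seen.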

Additional observations from a re-analysis of the deposited data

Results flagged for a closer look

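Sf3b2, an SF3b subunit, had 138.26 FPKM in preleukemic replicate 2, while the other 3 preleukemic samples lay close together at 145 to 146 FPKM. The gap to the nearest of them was 0.83 of the range of the group, just above Dixon's 95% critical value for 4 samples. Chance flags about 1 in 20 groups, and 30 groups of 4 were examined. The leukemic samples had 130.07 to 159 FPKM, so the value lay inside their range.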

How the results depend on the processing

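Of the 30 members, 1 was called, 0 with a filter on an FPKM sum of at least 70, 0 with the replicate block and 0 to 2 when single samples were left out (2, Snrpc and Snrpd3, without leukemic replicate 3). The count was 1 under the 4 other settings, but the gene was Sf3a2 with no filter (Snrpc 0.0615) and Sf3b1, lower, with FPKM scaled to the same sum (Snrpc 0.0805). The adjusted p of Snrpc ranged from 0.0297 to 0.191 (limma). The partner genes gave 15 calls, 30 with FPKM scaled to the same sum (25 of them lower), 0 with the replicate block and 0 to 17 when single samples were left out. Among all genes the replicate block left 0 calls; it uses the 3 numbers that both groups share. The Pearson correlations of deviations across genes between samples of the same number were 0.03, 0.05 and -0.09. Between samples of different numbers they were -0.113 to 0.112. Leukemic replicates 1 and 3 correlated best with preleukemic replicates of another number, and leukemic replicate 2 with that of its own. All these correlations are weak, so they cannot settle whether the numbers pair the samples.

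No fold change that was called in the fit as reported turned. With FPKM scaled to the same sum 10 members turned, to -0.0867 for Sf3a3, -0.0168 for Sf3b4, -0.02235 for Sf3b5, -0.0942 for Snrpa, -0.0532 for Snrpe, -0.0462 for Snrpf, -0.0767 for Srsf1, -0.11 for Srsf10, -0.0633 for Srsf4 and -0.0553 for Srsf9. With quantile normalization 4 turned, to -0.00297 for Sf3a3, -0.0124 for Snrpa, -0.0583 for Snrpe and -0.0039 for Srsf10, and with the replicate block 2, to 0.0065 for Sf3b2 and -0.0039 for Srsf10. When single samples were left out, the range was -0.0972 to 0.03004 for Sf3a1, -0.069 to 0.17 for Sf3a3, -0.0757 to 0.0685 for Sf3b2, -0.0178 to 0.29 for Sf3b5, -0.0658 to 0.20 for Snrpa, -0.17 to 0.11 for Snrpb2, -0.00522 to 0.17 for Srsf4, -0.0107 to 0.20 for Srsf9, -0.00395 to 0.0969 for Srsf10 and -0.0842 to 0.0747 for Srsf11. The causes were not tested. Depth of 13600000 to 16100000 fragments set no limit for the tested members beyond a counting error of 5.55%. The intervals are computed from the spread between samples and from their number, 3 against 4.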
